A study of Mus musculus with 12 samples.

Results

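The unfolded protein response and the chaperones of the endoplasmic reticulum (ER) were followed through 31 genes, listed by name with earlier results of these data known, among the 19496 genes that could be named on the array. All 31 were found, and none was lost to a filter, as no filter on dim signals was applied. Whole gastrocnemius, which is a muscle of the calf, and whole hearts were sampled. The 4 groups were gastrocnemius of C26 mice, gastrocnemius of non-tumour-bearing (NTB) mice, heart of C26 mice and heart of NTB mice, with 3 biological replicates on 3 arrays each. C26 mice had received 1000000 cells of the C26 colon carcinoma line under the skin of the flank in 100 µl of medium, and NTB mice 100 µl of the medium alone. All were Balb/c-DBAj hybrids of 10 to 11 weeks. The muscles were taken from different cohorts, so any difference between the muscles is also one between cohorts, and the model rests on 1 tumour line. Tumour size, time after injection and weight loss are not given in the sources used here. Levels are log2 values from a microarray, as the authors normalized them.

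The ER folds proteins that enter membranes or leave the cell. When unfolded protein builds up there, 3 membrane sensors (Ern1, which encodes IRE1, Eif2ak3, which encodes PERK, and Atf6) slow translation and switch on genes for chaperones, disulphide isomerases and the machinery that carries misfolded protein out for degradation, known as ER-associated degradation. In striated muscle part of the ER is specialised as the sarcoplasmic reticulum, the calcium store of contraction, and calreticulin and other lumenal chaperones also bind calcium.

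Many of these genes are textbook targets of ATF6 and of XBP1, the factor made from the mRNA that IRE1 splices. Both act through short promoter elements, so the elements are shown first, to let the later values be read against them. The ER stress element (ERSE) was searched as CCAAT and CCACG with 9 bases between them, ERSE-II as ATTGG and CCACG with 1 base between them, and the unfolded protein response element (UPRE) as TGACGTG, each on both strands. The windows ran from 250 bases before to 50 after each RefSeq start in build GRCm38.p6. A window was at hand for 26 of the 31 genes, but not for Manf, Hyou1, Atf6, Derl1 or Sec61a1. ERSE was found in 9 of the 26, against 0.119% of all 32851 windows (39 of them). ERSE-II was found in 2 of the 26, against 0.0365% of all windows (12 of them). UPRE was found in 1 of the 26, against 2.01% of all windows (661 of them).

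The ERSE copies of genes that were called in one of the muscles, and those of Hspa5, the best known target, are printed here on the strand that reads CCAAT first, with CCAAT and CCACG in capitals. Hsp90b1 held 2 copies. The ERSE-II copies of Herpud1 and Dnajb11 follow in the same way, and last the UPRE of Hspa5.
Hspa5, chr2:34772015-34772053, plus strand: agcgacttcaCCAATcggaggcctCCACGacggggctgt
Hsp90b1, chr10:86705523-86705561, plus strand: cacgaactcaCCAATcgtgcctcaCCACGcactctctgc
Hsp90b1, chr10:86705628-86705666, minus strand: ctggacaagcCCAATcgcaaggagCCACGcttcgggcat
Calr, chr8:84847065-84847103, plus strand: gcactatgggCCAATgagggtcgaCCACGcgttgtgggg
Canx, chr11:50325790-50325828, minus strand: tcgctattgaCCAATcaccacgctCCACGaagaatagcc
Dnajc3, chr14:118937817-118937855, plus strand: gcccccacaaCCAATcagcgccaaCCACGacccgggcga
Herpud1 ERSE-II, chr8:94386367-94386397, plus strand: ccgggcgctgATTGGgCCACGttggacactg
Dnajb11 ERSE-II, chr16:22857842-22857872, plus strand: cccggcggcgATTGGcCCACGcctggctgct
Hspa5 UPRE, chr2:34771923-34771949, plus strand: ggcgtagcaaTGACGTGagttgcggag

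The remaining ERSE copies were in Pdia6, Creld2, Derl3 and Syvn1. The genes with the largest change of the 31 in each muscle, Edem1 in gastrocnemius and Sdf2l1 in heart, had none of the 3 elements in their windows. Their 250 bases before the start are printed in the direction of the gene, with every separate CCAAT and CCACG on either strand in capitals. Sdf2l1 had 3 copies of CCAAT and 3 of CCACG, and Edem1 had 1 and 2, none at the ERSE or ERSE-II spacing.
Sdf2l1, chr16:17132384-17132633, minus strand: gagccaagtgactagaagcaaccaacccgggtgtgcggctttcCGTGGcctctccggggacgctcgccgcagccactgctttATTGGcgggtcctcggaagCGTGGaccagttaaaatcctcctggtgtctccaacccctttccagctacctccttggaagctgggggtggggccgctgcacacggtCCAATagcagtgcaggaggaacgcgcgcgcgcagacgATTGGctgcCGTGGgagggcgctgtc
Edem1, chr6:108828391-108828640, plus strand: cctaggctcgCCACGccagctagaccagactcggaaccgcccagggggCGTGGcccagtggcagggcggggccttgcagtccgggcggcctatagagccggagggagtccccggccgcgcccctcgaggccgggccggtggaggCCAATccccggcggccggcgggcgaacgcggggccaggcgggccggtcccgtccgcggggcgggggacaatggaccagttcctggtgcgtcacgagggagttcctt

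In C26 gastrocnemius 8 of the 31 genes rose relative to NTB gastrocnemius (limma, adjusted p under 0.05 over all 19496 genes), while 6.44% of all genes did. They were Edem1, Ern1, P4hb, Dnajb9, Canx, Xbp1, Hsp90b1 and Calr. None of the 31 was called lower, against 5.45% of all genes, and at an unadjusted p under 0.05 the counts were 12 higher and 0 lower. The share of all genes at an unadjusted p was not counted, here or below. The unadjusted counts therefore have no background and cannot be set against the shares of called genes. In whole tissue, more cells of a type and more RNA per cell cannot be told apart. The median difference of the 31 was 0.24 on the log2 scale, that of all genes was -0.00292, and 24 of the 31 were above 0. All 3 C26 arrays lay above all 3 NTB arrays for 11 of the 31, as for 9.99% of all genes, and below them for 1, as for 9.4% of all genes.

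In C26 heart 6 of the 31 rose relative to NTB heart, while 2.13% of all genes did. They were Dnajc3, Sdf2l1, Edem1, Manf, P4hb and Pdia4. None was called lower, against 1.1% of all genes. At an unadjusted p under 0.05 the counts were 16 higher and 0 lower, again with no share of all genes to set beside them. The median difference was 0.27 on the log2 scale, against 0.00836 for all genes, and 28 of the 31 were above 0. All 3 C26 hearts lay above all 3 NTB hearts for 21 of the 31, as for 14.2% of all genes, and below them for 0, as for 13.4% of all genes. Edem1 and P4hb were called in both muscles, which is 25% of the genes called in gastrocnemius and 33.3% of those called in heart. Of all genes, 148 were called higher in both muscles, which is 11.8% of those called higher in gastrocnemius and 35.7% of those called higher in heart. Of the 31, 19 were called in neither muscle, as were 86.1% of all genes.

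How many genes passed depended on how the spread was estimated. With each muscle fitted alone, 14 of the 31 were called higher in heart, where 5.88% of all genes were, and 2 in gastrocnemius, where 2.45% of all genes were. The 8 genes added in heart were Hyou1, Calr, Creld2, Pdia3, Pdia6, Atf6, Xbp1 and Sec61a1, and the 2 kept in gastrocnemius were Edem1 and Ern1. Lost in gastrocnemius were Dnajb9, P4hb, Canx, Xbp1, Hsp90b1 and Calr (limma, adjusted p = 0.0516, 0.0526, 0.0643, 0.106, 0.153 and 0.296). In gastrocnemius, arrays of the same replicate number deviated together. With that number as a block in gastrocnemius alone, 12 of the 31 were called higher in each muscle, where 10.1% of all genes were in gastrocnemius and 3.91% in heart. The block added Pdia3, Atf6, Derl1 and Derl2 in gastrocnemius, and Hyou1, Calr, Creld2, Pdia3, Atf6 and Xbp1 in heart.

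Array 3 of C26 gastrocnemius stood apart from the rest. Its values over all measured rows had an interquartile range of 2.48 on the log2 scale, against 2.66 to 2.92 in the other 11 arrays. The mean log2 level of 8 B cell and plasma cell markers was 5.98 in it, against 5.05 and 4.93 in the other C26 gastrocnemius arrays. In NTB gastrocnemius it was 5.24, 5.03 and 5.12. The mean of 8 adipocyte markers was 8.38 in array 3, against 6.81 and 7.63 in C26 arrays 1 and 2. In NTB gastrocnemius that mean was 7.03, 6.97 and 6.83, so C26 array 2 also lay above all NTB arrays. The median deviation of the 31 genes from the NTB mean was 0.36, 0.29 and 0.10 in C26 gastrocnemius arrays 1, 2 and 3, against 0.01, 0.10 and -0.13 in NTB gastrocnemius. It was 0.22, 0.27 and 0.33 in C26 heart, against 0.0018, -0.0033 and 0.0015 in NTB heart. Without array 3, 12 of the 31 were called higher in gastrocnemius, where 11.5% of all genes were, and 10 in heart, where 3.36% of all genes were. The 8 genes called with it were all among those 12, beside Hspa5, Atf6, Derl1 and Derl2.

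**Figure D1:**
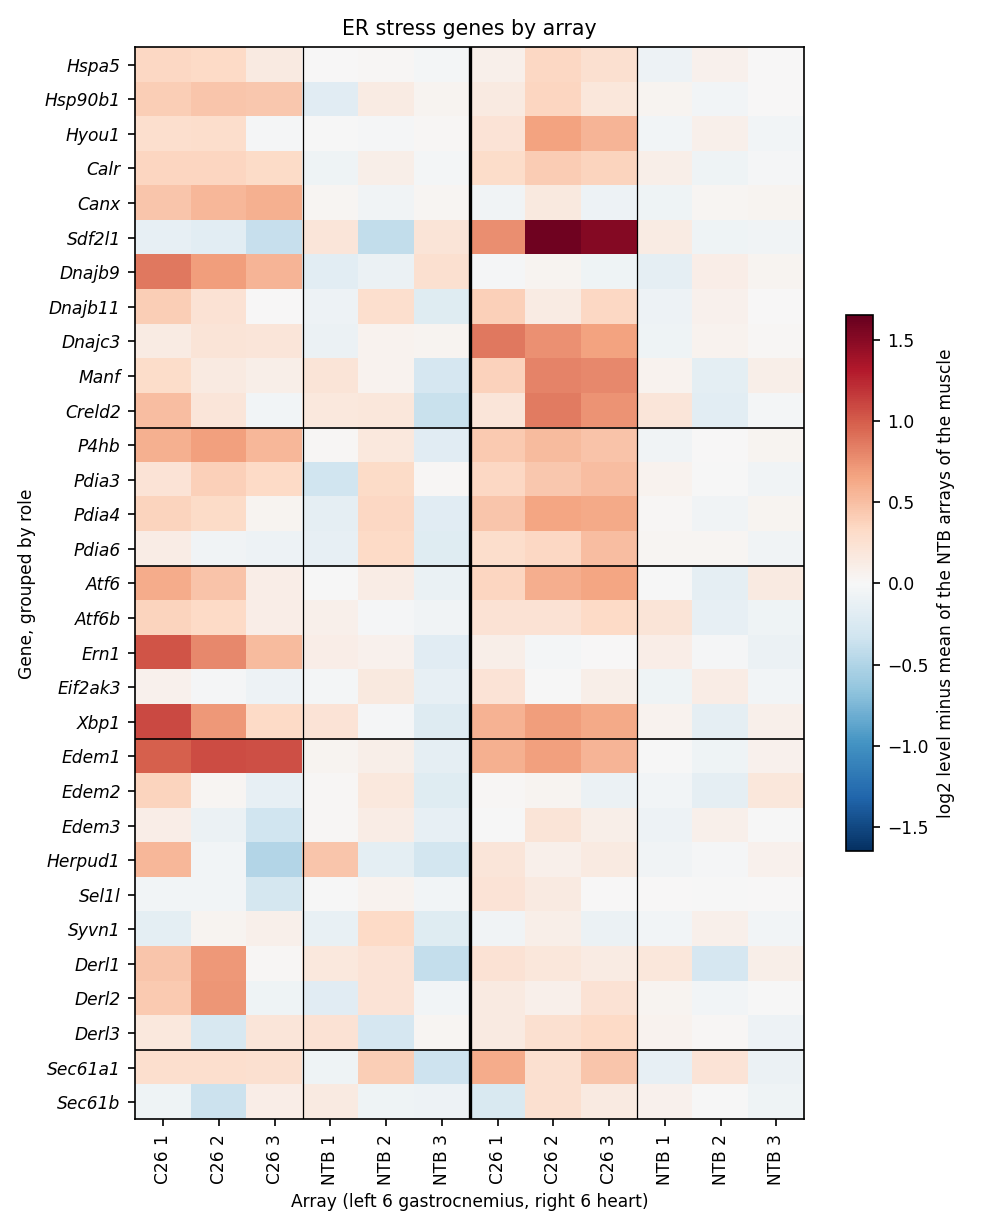
Heat map of the 31 genes (rows, grouped by role) on the 12 arrays (columns), as log2 level minus the mean of the 3 NTB arrays of the same muscle. Red stands for a level above the NTB mean and blue for one below it. The 3 C26 columns of each muscle are mostly red, with Edem1 dark red in all 3 in gastrocnemius and Sdf2l1 darkest in heart, and the third C26 gastrocnemius column is paler than the first 2.

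Among the 11 lumenal chaperones and their cofactors, 4 rose in C26 gastrocnemius, as did 6.44% of all genes, and 3 in C26 heart, as did 2.13%. No chaperone was on both lists. Canx encodes calnexin, the membrane-bound lectin chaperone that holds newly made glycoproteins. Its level was 10.26, 10.35 and 10.39 in C26 gastrocnemius, against 9.84, 9.74 and 9.83 in NTB gastrocnemius. All C26 values lay above all NTB values, and the rise was 0.54 ± 0.10 (SE, limma, adjusted p = 0.00252). In heart Canx was at 11.76, 11.97 and 11.73 in C26 mice, against 11.74, 11.85 and 11.86 in NTB mice, so that the groups overlapped (0.00 ± 0.10, adjusted p = 0.997). Calr encodes calreticulin, the soluble partner of calnexin and a calcium-binding protein of the lumen. It was at 9.64, 9.64 and 9.60 in C26 gastrocnemius, against 9.21, 9.39 and 9.25 in NTB gastrocnemius (0.34 ± 0.10, adjusted p = 0.0399). In heart the shift was of the same size, 10.60, 10.72 and 10.67 in C26 mice against 10.40, 10.23 and 10.28 in NTB mice, without passing the test (0.36 ± 0.10, adjusted p = 0.0789). The C26 arrays of Calr lay above the NTB arrays in both muscles, and its call in gastrocnemius held in 9 of the 21 alternative settings that were tried (12 of them leaving out 1 array each), with adjusted p up to 0.296.

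Hsp90b1 encodes GRP94, the Hsp90 of the ER. Its level was 10.56, 10.60 and 10.59 in C26 gastrocnemius, against 9.96, 10.29 and 10.19 in NTB gastrocnemius. The C26 arrays were the higher and the more even of the groups, and the rise was 0.44 ± 0.11 (adjusted p = 0.0163), which became an adjusted p of up to 0.153 in the settings where the call was lost, among them those that left out array 2 of the C26 or array 1 of the NTB gastrocnemius group. In heart the difference was 0.23 ± 0.11 (adjusted p = 0.438), with all C26 arrays above all NTB arrays. Hspa5 encodes BiP, the main Hsp70 of the lumen, which also keeps the sensors inactive. It was at 10.61, 10.59 and 10.42 in C26 gastrocnemius, against 10.28, 10.28 and 10.24 in NTB gastrocnemius, and at 10.97, 11.23 and 11.16 in C26 heart, against 10.81, 10.96 and 10.89 in NTB heart. Although the groups did not overlap in either muscle, neither difference was called (0.27 ± 0.11, adjusted p = 0.131, and 0.23 ± 0.11, adjusted p = 0.397).

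Dnajb9, a J-domain cofactor of BiP known as ERdj4, rose in gastrocnemius. Its level was 9.53, 9.36 and 9.22 in C26 gastrocnemius, against 8.50, 8.57 and 8.93 in NTB gastrocnemius, a rise of 0.70 ± 0.13 or 1.63-fold (adjusted p = 0.00225). In heart it was at 10.28, 10.35 and 10.23 in C26 mice, against 10.14, 10.41 and 10.35 in NTB mice. There the groups overlapped and the difference was -0.01 ± 0.13 (adjusted p = 0.992).

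Sdf2l1, a lumenal protein that works with BiP and its J-domain cofactors, had the largest rise of the 31 in heart. It was at 8.66, 9.50 and 9.41 in C26 heart, against 8.02, 7.82 and 7.83 in NTB heart. The lowest C26 heart lay above the highest NTB heart, and the rise was 1.30 ± 0.21 or 2.46-fold (adjusted p = 0.0019). In gastrocnemius it was at 6.96, 6.91 and 6.71 in C26 mice, against 7.29, 6.68 and 7.30 in NTB mice, where the groups overlapped (-0.23 ± 0.21, adjusted p = 0.642).

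Dnajc3, which encodes the J-domain protein p58IPK, also rose in heart. It was at 9.01, 8.89 and 8.80 in C26 heart, against 8.06, 8.19 and 8.15 in NTB heart, a rise of 0.76 ± 0.11 or 1.70-fold (adjusted p = 0.000706). In gastrocnemius it was at 9.09, 9.17 and 9.15 in C26 mice, against 8.87, 9.01 and 9.00 in NTB mice. The C26 arrays were above the NTB arrays in both muscles, but the smaller difference in gastrocnemius was not called (0.18 ± 0.11, adjusted p = 0.391). The array carries this gene on 2 rows with identical values.

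Manf, a small lumenal protein that binds BiP and can be secreted, was at 6.99, 7.43 and 7.40 in C26 heart, against 6.67, 6.46 and 6.72 in NTB heart. All C26 hearts were higher, and the rise was 0.66 ± 0.15 (adjusted p = 0.0278), called in 15 of 21 alternative settings with adjusted p up to 0.162. In gastrocnemius its difference was 0.18 ± 0.15 with overlapping groups (adjusted p = 0.618). The other 3 chaperones were, like Hspa5, called in neither muscle. Hyou1, the large Hsp70-like partner of BiP, was at 7.81, 8.24 and 8.14 in C26 heart, against 7.54, 7.67 and 7.54 in NTB heart. Its groups did not overlap there (0.48 ± 0.13, adjusted p = 0.0713), and in gastrocnemius they did (0.18 ± 0.13, adjusted p = 0.523). Creld2, an ER stress-inducible protein of the lumen, was at 8.00, 8.67 and 8.55 in C26 heart, against 8.01, 7.64 and 7.78 in NTB heart (0.60 ± 0.20, adjusted p = 0.165). One C26 heart lay just below the highest NTB heart. Dnajb11, the J-domain cofactor ERdj3, differed by 0.22 ± 0.15 in gastrocnemius and by 0.29 ± 0.15 in heart, with adjusted p of 0.475 and 0.467.

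**Figure D2:**
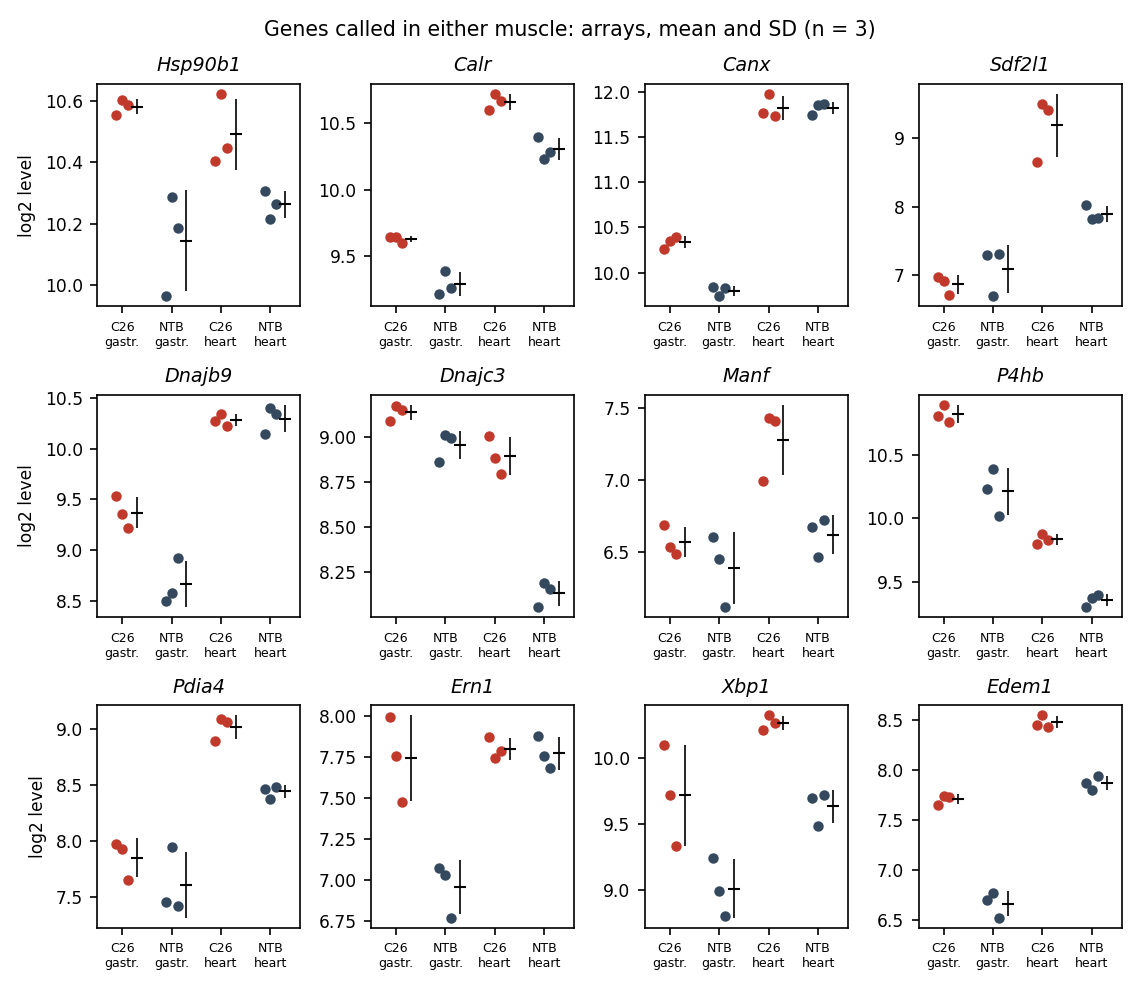
Log2 level of the 12 genes called in either muscle, 1 panel per gene with its own axis, in C26 and NTB gastrocnemius and C26 and NTB heart. Dots are the 3 arrays of a group, red for C26 and dark blue for NTB, and the bars beside them are the mean and SD. In heart the C26 dots of Sdf2l1 and Dnajc3 lie above the NTB dots, while those of Canx, Dnajb9 and Ern1 overlap with them.

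The 4 protein disulphide isomerases form and rearrange disulphide bonds in folding proteins. P4hb, the archetype of the family and also a subunit of collagen prolyl 4-hydroxylase, rose in both muscles. It was at 10.80, 10.89 and 10.75 in C26 gastrocnemius, against 10.23, 10.38 and 10.02 in NTB gastrocnemius (0.60 ± 0.11, adjusted p = 0.00187). It was at 9.80, 9.88 and 9.83 in C26 heart, against 9.31, 9.37 and 9.40 in NTB heart (0.48 ± 0.11, adjusted p = 0.0278). The groups did not overlap in either muscle, and the heart call held in 15 of 21 alternative settings, with adjusted p up to 0.131.

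Pdia4, known as ERp72, rose in heart, where it was at 8.89, 9.09 and 9.06 in C26 mice, against 8.46, 8.38 and 8.48 in NTB mice (0.57 ± 0.15, adjusted p = 0.0459). All C26 hearts lay above all NTB hearts, and the call held in 12 of 21 alternative settings, with adjusted p up to 0.197. In gastrocnemius its groups overlapped (0.24 ± 0.15, adjusted p = 0.406). Pdia3, or ERp57, which works with calnexin and calreticulin on glycoproteins, was at 9.97, 10.07 and 10.14 in C26 heart, against 9.69, 9.63 and 9.57 in NTB heart. That difference and the one in gastrocnemius were not called (0.43 ± 0.14, adjusted p = 0.148, and 0.32 ± 0.14, adjusted p = 0.194). Pdia6 was at 8.51, 8.55 and 8.72 in C26 heart, against 8.25, 8.24 and 8.15 in NTB heart (0.38 ± 0.14, adjusted p = 0.219), and differed by -0.0043 ± 0.14 in gastrocnemius. For all 4 isomerases the 3 C26 hearts lay above the 3 NTB hearts, as for 14.2% of all genes. In gastrocnemius this was so for P4hb, as for 9.99% of all genes.

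Of the 5 sensors and transcription factors, Ern1 and Xbp1 rose in gastrocnemius, where 6.44% of all genes did. None was called in heart, where 2.13% of all genes were called higher. At an unadjusted p under 0.05, for which no share of all genes was counted, 3 were higher in heart. Ern1 encodes IRE1, the sensor kinase and nuclease that splices Xbp1 mRNA. It was at 8.00, 7.76 and 7.48 in C26 gastrocnemius, against 7.08, 7.03 and 6.77 in NTB gastrocnemius. The lowest C26 array was above the highest NTB array, and the rise was 0.78 ± 0.14 or 1.72-fold (adjusted p = 0.00156). In heart it was at 7.87, 7.74 and 7.79 in C26 mice, against 7.88, 7.76 and 7.68 in NTB mice, with overlapping groups (0.03 ± 0.14, adjusted p = 0.985).

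Xbp1 was at 10.10, 9.72 and 9.33 in C26 gastrocnemius, against 9.24, 8.99 and 8.80 in NTB gastrocnemius (0.71 ± 0.17, adjusted p = 0.0109). C26 array 3 was the lowest of its group, only just above the highest NTB array, and the value without it was 0.90 ± 0.14 (adjusted p = 0.000306). In heart Xbp1 was at 10.21, 10.33 and 10.27 in C26 mice, against 9.70, 9.49 and 9.72 in NTB mice. All C26 hearts were higher, and the difference of 0.63 ± 0.17 missed the threshold (adjusted p = 0.0549), which it passed with the heart fitted alone (0.63 ± 0.08, adjusted p = 0.000149). With gastrocnemius fitted alone, the rise there was not called (0.71 ± 0.22, limma, adjusted p = 0.106). Over the 21 alternative settings Xbp1 was called in 19 for gastrocnemius and in 8 for heart. Each Xbp1 value is 1 level for the gene, and spliced and unspliced Xbp1 were not measured apart.

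Atf6, the sensor that is cut in the Golgi to release a transcription factor, was at 9.61, 9.85 and 9.90 in C26 heart, against 9.26, 9.11 and 9.40 in NTB heart (0.53 ± 0.14, adjusted p = 0.0587). In gastrocnemius it was at 8.71, 8.58 and 8.22 in C26 mice, against 8.10, 8.23 and 8.00 in NTB mice (0.40 ± 0.14, adjusted p = 0.0922). The heart groups did not overlap, and in gastrocnemius C26 array 3 lay just below the highest NTB array. Its paralog Atf6b differed by 0.27 ± 0.12 in each muscle, with no overlap in either and adjusted p of 0.229 in gastrocnemius and 0.401 in heart. Eif2ak3, which encodes PERK, the kinase that slows translation, was at 6.68, 6.59 and 6.52 in C26 gastrocnemius, against 6.58, 6.77 and 6.48 in NTB gastrocnemius, and at 6.89, 6.66 and 6.76 in C26 heart, against 6.59, 6.78 and 6.62 in NTB heart. Its groups overlapped in both muscles (-0.01 ± 0.12 and 0.11 ± 0.12).

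Of the 9 genes of ER-associated degradation, Edem1 rose in both muscles and no other was called. Of all genes, 6.44% were called higher in gastrocnemius and 2.13% in heart. Edem1 encodes a mannosidase-like protein that marks misfolded glycoproteins for removal. It was at 7.65, 7.74 and 7.73 in C26 gastrocnemius, against 6.70, 6.76 and 6.52 in NTB gastrocnemius, a rise of 1.04 ± 0.11 or 2.06-fold (adjusted p = 1.667e-05), the largest of the 31 in that muscle. It was at 8.45, 8.54 and 8.43 in C26 heart, against 7.86, 7.80 and 7.94 in NTB heart, a rise of 0.61 ± 0.11 or 1.52-fold (adjusted p = 0.00549). The groups lay clear of each other in both muscles, and both calls held in all 21 alternative settings. The related Edem2 and Edem3 differed by 0.09 ± 0.15 and -0.11 ± 0.13 in gastrocnemius and by -0.01 ± 0.15 and 0.10 ± 0.13 in heart.

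Herpud1, a membrane protein that assembles the degradation complex, spread widely in gastrocnemius, at 10.97, 10.38 and 9.95 in C26 mice, against 10.88, 10.27 and 10.13 in NTB mice (0.01 ± 0.22). In both groups array 1 was the highest and array 3 the lowest. In heart it was at 11.14, 11.03 and 11.09 in C26 mice, against 10.89, 10.92 and 11.02 in NTB mice (0.14 ± 0.22, adjusted p = 0.914), where C26 hearts lay just above NTB hearts. Syvn1, the ubiquitin ligase HRD1 of that complex, differed by -0.01 ± 0.14 in gastrocnemius and by -0.02 ± 0.14 in heart.

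Sel1l, the adaptor of HRD1, was the one gene of the 31 with all C26 arrays below all NTB arrays in gastrocnemius, at 9.01, 9.01 and 8.77 in C26 mice, against 9.05, 9.11 and 9.02 in NTB mice. In heart it was at 9.14, 9.07 and 8.93 in C26 mice, against 8.92, 8.92 and 8.92 in NTB mice, with all C26 hearts above. Neither difference (-0.13 ± 0.11 and 0.13 ± 0.11) nor the difference between them (adjusted p = 0.526) was called.

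The derlins, membrane proteins of the exit channel, were not called either. Derl1 and Derl2 differed by 0.40 ± 0.19 and 0.36 ± 0.17 in gastrocnemius, where C26 arrays 1 and 2 were higher than C26 array 3. For Derl2 these arrays stood at 7.95, 8.24 and 7.43, against 7.33, 7.74 and 7.47 in NTB gastrocnemius, and for Derl1 at 9.32, 9.57 and 8.87, against 9.03, 9.08 and 8.46. For Derl1, array 3 was the lowest of the NTB group too. Without C26 array 3 both genes were called (Derl1 0.59 ± 0.17, adjusted p = 0.0273, and Derl2 0.58 ± 0.13, adjusted p = 0.0059). Both were also called with that array kept and the replicate number as a block in gastrocnemius (limma, adjusted p = 0.0199 and 0.044). In heart they differed by 0.18 ± 0.19 and 0.16 ± 0.17. Derl3, which is also a marker of secretory cells such as plasma cells, differed by 0.04 ± 0.15 in gastrocnemius and by 0.24 ± 0.15 in heart. All C26 hearts lay above all NTB hearts for it (5.89, 6.01 and 6.07 against 5.81, 5.77 and 5.66). Its signal was dim, as its mean of 5.82 was below the median of all measured rows on every array (5.93 to 6.09).

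Neither gene of the translocon, the channel through which new chains enter the ER, was called. Sec61a1, its pore subunit, was at 10.34, 9.98 and 10.18 in C26 heart, against 9.59, 9.95 and 9.62 in NTB heart. The lowest C26 heart lay just above the highest NTB heart (0.44 ± 0.17, adjusted p = 0.242), and in gastrocnemius the difference was 0.27 ± 0.17 with overlapping groups. Sec61b, a small subunit, differed by -0.11 ± 0.15 in gastrocnemius and by 0.05 ± 0.15 in heart. It has 3 rows on the array, and which of them lies at the gene itself was not settled. The values are those of the brightest row, and neither of the other two was called in either muscle.

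The effects were then set against each other, as the gastrocnemius effect minus the heart effect in the same fit. Here 2 of the 31 were called higher, while 1.96% of all genes were, and 2 were called lower, while 2% of all genes were. Sdf2l1 differed by -1.53 ± 0.29 (limma, adjusted p = 0.00771), from an effect of -0.23 in gastrocnemius and 1.30 in heart, and this was called in all 20 alternative settings that gave a value. Dnajc3 differed by -0.58 ± 0.15 (adjusted p = 0.0449), from 0.18 in gastrocnemius and 0.76 in heart. Ern1 differed by 0.76 ± 0.20 (adjusted p = 0.0457), from 0.78 in gastrocnemius and 0.03 in heart. Dnajb9 differed by 0.72 ± 0.19 (adjusted p = 0.0453), from 0.70 in gastrocnemius and -0.01 in heart. Canx came next at 0.53 ± 0.15 (adjusted p = 0.0554).

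These last calls were close to the threshold. Dnajc3, Dnajb9 and Ern1 were called in 7, 7 and 8 of 20 alternative settings, with adjusted p up to 0.133, 0.14 and 0.128. With the replicate number as a block over all 12 arrays, 1 gene was called in each direction. For Edem1, which was called in both muscles with the larger rise in gastrocnemius, the difference of 0.44 ± 0.16 was not called (adjusted p = 0.17), nor was that of P4hb (0.13 ± 0.16, adjusted p = 0.817). Pdia4 and Xbp1 were called in one muscle and not in the other, which does not show that the effects differ, and the tested differences were -0.33 ± 0.21 (adjusted p = 0.535) and 0.07 ± 0.24 (adjusted p = 0.941).

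**Figure D3:**
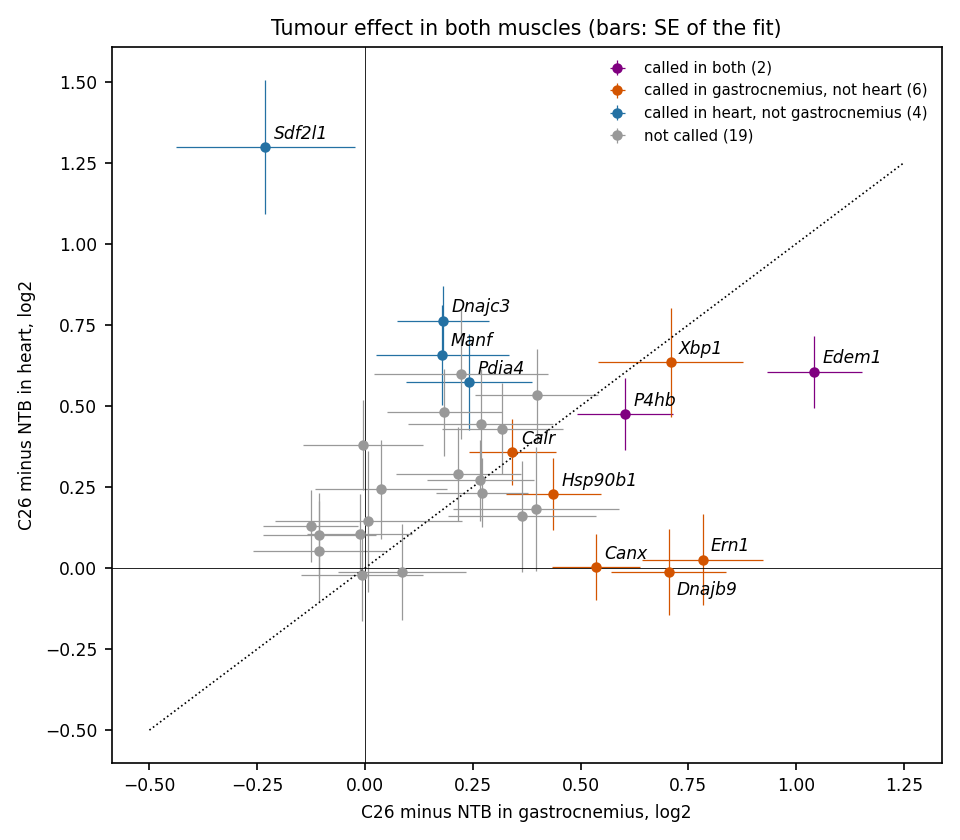
C26 minus NTB log2 difference in gastrocnemius (horizontal axis) and in heart (vertical axis) for the 31 genes, with the SE of the fit as bars and the line of equal effect dotted. Colours mark genes called in both muscles (2), in gastrocnemius but not heart (6), in heart but not gastrocnemius (4) and in neither (19). Sdf2l1 stands alone at the upper left, and Canx, Dnajb9 and Ern1 lie along the zero line of heart.

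The values can be set beside the promoter elements. Of the 11 genes with ERSE or ERSE-II, 3 rose in gastrocnemius and 1 in heart, with median log2 differences of 0.22 and 0.24. Of the 15 genes with a window and neither element, 5 rose in gastrocnemius and 4 in heart, with medians of 0.27 and 0.16. All C26 arrays lay above all NTB arrays for 5 of the 11 and 6 of the 15 in gastrocnemius, and for 8 of the 11 and 9 of the 15 in heart. Over all genes this was so for 9.99% in gastrocnemius and 14.2% in heart, and 6.44% and 2.13% were called higher. The counts by element describe letters in a short window and carry no test.

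Levels without tumour differed between the muscles for many of the genes. In NTB heart 14 of the 31 were called higher than in NTB gastrocnemius, where 24.8% of all genes were, and 6 were called lower, where 15.8% of all genes were. The median difference was 0.30 on the log2 scale, against 0.05 for all genes. These NTB arrays are also those of the tumour comparisons, and the muscles came from separate cohorts. Canx differed most, by 2.02 ± 0.10, at 11.74, 11.85 and 11.86 in NTB heart against 9.84, 9.74 and 9.83 in NTB gastrocnemius. The other genes higher in heart were Dnajb9 (by 1.63), Sec61a1 (1.45), Edem1 (1.21), Atf6 (1.15), Calr (1.02), Pdia4 (0.84), Creld2 (0.83), Ern1 (0.81), Sdf2l1 (0.80), Derl1 (0.79), Xbp1 (0.63), Hspa5 (0.62) and Syvn1 (0.52). Those lower in heart were P4hb (-0.85), Dnajc3 (-0.82), Sec61b (-0.75), Edem3 (-0.64), Dnajb11 (-0.62) and Pdia6 (-0.53). The value of Sec61b is that of its brightest row, and its other two rows were also lower in heart (-0.83 and -0.88, adjusted p over all rows 0.000273 and 0.000645).

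Read beside the tumour comparisons, Canx, Dnajb9 and Ern1, which rose in C26 gastrocnemius, were all higher in NTB heart than in NTB gastrocnemius. In C26 gastrocnemius Ern1 averaged 7.74 ± 0.26 (SD, n = 3), near its 7.77 ± 0.10 in NTB heart, while Canx at 10.34 ± 0.07 and Dnajb9 at 9.37 ± 0.15 stayed under their 11.82 ± 0.06 and 10.30 ± 0.14 in NTB heart. Dnajc3 was the reverse case. It rose in C26 heart to 8.90 ± 0.11, against 8.13 ± 0.07 in NTB heart, and had stood at 8.96 ± 0.08 in NTB gastrocnemius. Calr and Xbp1, called in gastrocnemius, were also higher in NTB heart (by 1.02 and 0.63). Sdf2l1 and Pdia4 went the other way. They rose in C26 heart and were already higher in NTB heart than in NTB gastrocnemius (by 0.80 and 0.84). Of the genes called in both muscles, Edem1 was higher (1.21) and P4hb lower (-0.85) in NTB heart. Hsp90b1 (0.12) and Manf (0.23) were not called between the NTB muscles. Because these comparisons share arrays, the values are given side by side without a test.

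**Figure D4:**
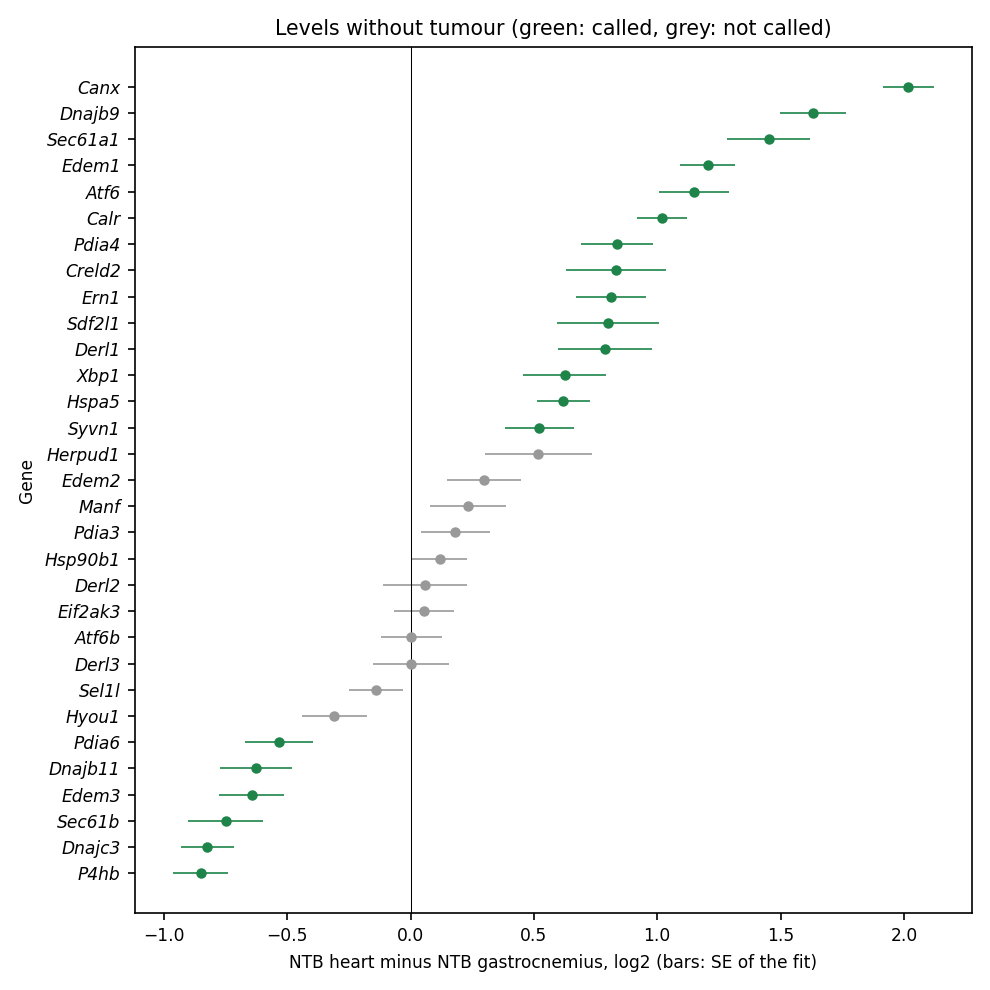
NTB heart minus NTB gastrocnemius log2 difference of the 31 genes, ordered by size, with the SE of the fit as bars. Green points were called and grey points were not. Canx lies highest at 2.02 and P4hb lowest at -0.85.

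The wider secretory pathway was read from lists of further genes. Their counts of called genes stand against 6.44% of all genes called higher and 5.45% called lower in gastrocnemius, and 2.13% and 1.1% in heart. Their unadjusted counts have no such share. Of 25 other genes of ER-associated degradation, 6 rose and 0 fell in C26 gastrocnemius (8 and 2 at an unadjusted p under 0.05, limma). Among them were Nploc4 (1.23) and Ubxn4 (1.16), which help the p97 ATPase pull proteins out of the membrane, and Herpud2 (0.78), the relative of Herpud1. In heart none of the 25 was called, with 4 higher and 0 lower unadjusted. The median log2 differences were 0.26 in gastrocnemius and 0.12 in heart. Of 30 genes of ER-to-Golgi transport, 8 rose in gastrocnemius, with Sec24a (0.97) of the COPII coat and Copa (0.62) and Copb1 (0.44) of the COPI coat leading, and Lman1 (-0.60), a cargo receptor, fell. None was called in heart, with 5 higher and 0 lower unadjusted.

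Of 29 other genes listed with folding enzymes, not all of them enzymes, 3 rose in gastrocnemius, namely Uggt1 (0.84), Dnajc1 (0.63) and Cnpy3 (0.37). Uggt1 encodes the glucosyltransferase that returns misfolded glycoproteins to calnexin and calreticulin. Tmx2 (-1.38) and Txndc5 (-0.47), both of the thioredoxin family, fell in gastrocnemius. In heart Nucb2 (0.52) rose and Tmx2 (-0.80) fell. Of 31 further genes of the translocon, signal peptidase and oligosaccharyltransferase, 4 rose in gastrocnemius, led by Sec63 (0.65), Spcs3 (0.89) and Srp68 (0.70), and Ssr3 (-0.51) fell. In heart none of the 31 was called (7 higher and 0 lower unadjusted), and 28 had a difference above 0, as 10147 of all 19496 genes did. All C26 hearts lay above all NTB hearts for 18 of these further genes, as for 14.2% of all genes. Their median was -0.05 in gastrocnemius and 0.14 in heart.

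Genes of the integrated stress response and of its factor CHOP were read as well, 25 in all. The part of PERK in their changes was not tested. In gastrocnemius 7 rose and 0 fell (12 and 1 unadjusted), led by Slc3a2, the heavy chain of amino acid transporters, Herpud2, which is also on the degradation list, and Vldlr (0.74). In heart 3 rose and 0 fell (8 and 0 unadjusted), namely Slc3a2, Atf3 and Nupr1 (0.49). Slc3a2 was at 10.17, 10.50 and 10.42 in C26 gastrocnemius, against 9.24, 9.49 and 9.15 in NTB gastrocnemius (1.07 ± 0.13, adjusted p = 4.016e-05), and at 11.37, 11.61 and 11.47 in C26 heart, against 10.27, 10.20 and 10.37 in NTB heart (1.20 ± 0.13, adjusted p = 6.617e-05). Atf3, a stress-induced transcription factor, differed by 1.12 ± 0.20 in gastrocnemius (adjusted p = 0.00129) and by 0.96 ± 0.20 in heart (adjusted p = 0.0112). Ddit3, which encodes CHOP itself, and Atf4, named after their values were seen, were not called. Ddit3 differed by -0.26 ± 0.11 in gastrocnemius and by 0.02 ± 0.11 in heart, and Atf4 by 0.29 ± 0.19 and 0.33 ± 0.19.

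The calcium store of the muscle was read in the same way. Of 19 calcium-handling genes of the sarcoplasmic reticulum, 8 fell and 0 rose in C26 gastrocnemius (11 and 0 unadjusted), led by Casq1 (-2.40), the main calcium buffer of the store in fast fibres, Jph2 (-2.02), which ties it to the surface membrane, and Cacna1s (-0.92), the voltage sensor. In heart 3 fell and 0 rose (5 and 0 unadjusted), namely Casq1 (-1.18), Hrc (-0.66) and Trdn (-0.62). Their medians were -0.40 and -0.15. Casq1 and Hrc are also on the muscle marker lists below. Of 18 genes that process collagen in the ER, Fkbp9 (-0.55) fell in gastrocnemius and P4ha3 (0.73), a catalytic subunit that pairs with P4hb, rose in heart.

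The tissues were checked against their markers, and the markers of other cells were read beside the results. The mean log2 level of 12 skeletal fibre markers was 6.90 to 7.22 in heart and 12.6 to 13.3 in gastrocnemius, and 11 of 12 cardiomyocyte markers were called higher in NTB heart than in NTB gastrocnemius. The mean level of each muscle's own markers was lower with tumour. The skeletal mean was 12.6 to 12.9 in C26 gastrocnemius, against 13.2 to 13.3 in NTB gastrocnemius, and 3 of the 12 fell, namely Casq1, Mylpf and Pvalb (-0.97). The cardiomyocyte mean was 11.8 to 12.1 in C26 heart, against 12.2 to 12.3 in NTB heart, and 2 of the 12 fell, namely Hrc and Mybpc3 (-0.55). Neither pair of groups overlapped in these means. The mean of 10 macrophage markers was 7.76 to 7.89 in C26 heart, against 7.00 to 7.14 in NTB heart, and 5 of them rose, among them Cd68 (0.98), Lyz2 (0.97) and Tyrobp (0.69). That of 10 fibroblast markers was 9.29 to 9.63 in C26 heart, against 8.85 to 8.96 in NTB heart, and 2 rose, Fbln1 (1.09) and Dpt (1.06). In gastrocnemius the fibroblast mean was 7.94 to 8.23 in C26 mice, against 8.76 to 9.26 in NTB mice, with 5 markers lower, led by Col1a2 (-2.21), Col1a1 (-2.54) and Col3a1 (-1.44), and Fbln1 higher (0.68). Of the other markers in gastrocnemius, 4 of 10 endothelial, 2 of 8 adipocyte and 1 of 10 macrophage markers rose. The part of all these markers in the results on the 31 genes was not tested.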

How the data were processed

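Microarray levels of 12 RNA samples were compared, from whole gastrocnemius and whole heart of C26 and NTB mice (4 groups of 3, as the labels group them). Per the labels' protocols, 250 ng of RNA per sample was labelled and put on a 1-colour Affymetrix MoGene-1_0-st-v1 array. The deposited log2 values were made by the authors with RMA, which the submitters' processing notes list with Partek, GCOS and build mm8 but with no version or role. The log2 scale was inferred from the range of the values. Gene names came from a second deposited table. Its 12 columns of values carry codes that match no sample label and were not used. Its symbols and accessions stop after 7 characters, so a symbol of that length got a name if exactly 1 gene of the GRCm38.p6 gene table began that way, or 1 of several by its accession start (5423 of 7122 rows). In all 21993 of 35556 rows were named, for 19496 genes, and for the 1392 genes with more than 1 row the brightest on average was used. For 27 of the 31 genes the start of the accession fitted as well, and for Calr, Xbp1, Atf6b and Syvn1 the table gave the start of an Ensembl accession.

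One model with 4 group means was fitted to all 12 arrays with limma 3.58.1 in R 4.3.3, with variances moderated along their trend with level (residual degrees of freedom 8, prior ones 6.86 at the median). Tests were two-sided, and the adjusted p is by Benjamini and Hochberg over the 19496 genes, with 0.05 as the threshold for a call. The steps were tested on simulated data with independent noise and the same spread in both muscles for each gene. Those data could not test the calls where the spread differs between the muscles or arrays deviate together. The number of arrays limits the precision. The alternatives were each muscle fitted alone, no variance trend, array weights, quantile normalization, genes above the median level, the mean of all rows of a gene, adjustment over all rows, the replicate number as a block, and each of the 12 arrays left out in turn. A block in gastrocnemius alone was added after the data were seen: arrays of the same number there had correlated deviations from their group means (0.31, 0.33 and 0.495), while those of heart did not (0.0911, -0.041 and 0.0143), and the labels do not say what a number shares. Scan dates are not given in the sources used here. The 31 genes, the other lists and the alternatives in the plan were chosen with earlier results of these data known. All 31 genes are named. Of the other lists, at most the 3 called genes with the smallest p in each direction are named for each tumour comparison. Promoter sequences are from RefSeq, build GRCm38.p6, and figures were drawn with matplotlib 3.10.9.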

Additional observations from a re-analysis of the deposited data

Results flagged for a closer look

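For 4 of the 31 genes the C26 effect differed between the muscles by the test of the difference itself (gastrocnemius effect minus heart effect, limma adjusted p over all genes), 2 higher and 2 lower, while 1.96% of all genes were called higher and 2% lower. Sdf2l1, the BiP-associated lumenal protein, differed by -1.529 on the log2 scale (adjusted p = 0.00771), with all C26 hearts above NTB and the gastrocnemius groups overlapping, and was called in all 20 alternative settings. Dnajc3, the J-domain protein p58IPK, differed by -0.5819 (adjusted p = 0.0449). Dnajb9, the J-domain protein ERdj4, differed by 0.7173 (adjusted p = 0.0453). Ern1, the sensor IRE1, differed by 0.7576 (adjusted p = 0.0457). These last 3 were close to the threshold. Dnajc3, Dnajb9 and Ern1 were called in 7, 7 and 8 of the 20 settings, and in 1, 2 and 1 of the 12 that left out an array. The muscles came from separate cohorts, and a difference of muscle and one of cohort cannot be told apart here. No other gene of the 31 was called in this test, in which Canx came closest (adjusted p = 0.0554).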

How the results depend on the processing

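No called gene of the 31 changed its direction in any alternative. The number called higher in gastrocnemius (8) was 2 with the muscle fitted alone and 13 with array weights, and 6 to 12 with 1 array left out. The number called higher in heart (6) was 14 with the muscle fitted alone, 15 with array weights and 12 with a replicate block in gastrocnemius only. It was 3 without C26 heart array 2 or 3 or any 1 of the NTB hearts, and 10 without C26 gastrocnemius array 3, the range over left-out arrays. For the difference between the muscles, the count called higher (2) was 1 without the variance trend, 4 with array weights, 0 adjusted over all rows, 1 with the replicate block over all arrays, and 0 to 3 with 1 array left out. The count called lower (2) was 1 adjusted over all rows, 1 with that block, and 1 to 2 with 1 array left out. The block over all 12 arrays gave 7 higher in gastrocnemius and 7 in heart. Over all genes, 2319, 629 and 772 were called for gastrocnemius, heart and the difference, against 902 and 2212 with each muscle fitted alone and 4285, 2074 and 2469 with array weights. Edem1 in both muscles, Ern1 in gastrocnemius, and Dnajc3 and Sdf2l1 in heart were called in every alternative. The median difference of the 31 was 0.19 to 0.32 in gastrocnemius and 0.24 to 0.29 in heart over the alternatives. The fits of 1 muscle give no value for the difference. They left the log2 differences as they were and changed the SE. For Calr the SE was 0.10 in both muscles in the main fit, against 0.15 with gastrocnemius and 0.07 with heart fitted alone. Why the spread differed and what caused the other shifts was not tested, and 3 arrays a group limit all counts.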
